A study of Mus musculus with 16 samples.

Results

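The late cMyc+ germinal center (GC) B cells were sequenced as a pair of subpopulations, cMyc+lateCD23int and cMyc+lateCD23lo, and the libraries carrying these labels are compared here. There were 4 libraries of each, so that 8 of the 16 libraries of the series enter the comparison, and 12505 of the 51912 genes in the table passed a mean normalized count of at least 10 over the 16 libraries. Cells came from spleens of male and female cMyc gfp/gfp reporter mice aged 6 to 15 weeks, 7 days after intraperitoneal immunization with sheep red blood cells (SRBC). This allele fuses GFP to cMyc at the gene's own locus, and every group carried it. Both subpopulations were sorted as B220+ CD38low CD95+ cMycGFP+ cells; cMyc+lateCD23int had intermediate CD23 and CD21/35, and cMyc+lateCD23lo had low levels of both. In the gating that the study describes, both were light zone cells, left after CD69hi cells and dark zone cells (CXCR4hi CD86lo) had been gated out. The other groups were cMyc+early (CD23hi CD21/35hi) and cMyc+prePB (CD69hi), with 4 libraries each. The labels do not say whether libraries of a group came from separate animals, so p-values measure the spread between these libraries, which may in part be technical.

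In a GC, B cells divide and mutate their antibody genes in the dark zone (DZ) and test the new receptors in the light zone (LZ), where they take up antigen from follicular dendritic cells and present it on MHC class II to T follicular helper cells. Signals through CD40 and the B cell receptor switch on NF-kB and immediate early genes, and they induce the transcription factor cMyc in the cells that are selected. Selected cells return to the DZ to divide, or leave as plasmablasts or memory B cells. CD23, the low-affinity IgE receptor encoded by Fcer2a, and CD21/35, the complement receptors encoded by Cr2, are surface proteins of follicular B cells.

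In cMyc+lateCD23int, LZ genes such as Il4i1, Egr2, Ccr6 and Cd83 were at higher levels, with a median log2 fold change of 0.74 over 18 genes tested. This and the other gene lists were chosen with earlier results of these data known. Of 16 genes of memory and recirculating B cells, 11 were higher in cMyc+lateCD23int by log2 fold change and 5 lower. The higher ones included Gpr183, Klf2, whose level was low, and Ccr6, which stands in both lists. In cMyc+lateCD23lo, genes of DNA replication and mitosis (Cdc6, Cdc45, Mki67, Ccnb2), Hsp90 and the immunoglobulin kappa variable genes were at higher mean levels. Among single genes, 1 passed an adjusted p under 0.05, the urea transporter Slc14a1, and the differences of the others are given as values.

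Recovered reads were between 19812080 and 25233703 per late library, and 14847 to 15573 genes were detected. A gene at or under 3 reads, or 2.79 to 3.23 normalized counts in the late libraries, was taken as not measurable, a floor that covers counting error only. Log2 values of a cMyc+lateCD23int and a cMyc+lateCD23lo library correlated at 0.867 to 0.892 over genes, and libraries within a subpopulation at 0.866 to 0.909. Replicate 1 of both subpopulations had the highest mitochondrial shares, 2.95% in cMyc+lateCD23int and 2.26% in cMyc+lateCD23lo, against 1.53% to 1.90% in the other late libraries. The label was checked with defining markers. The summed B cell markers, among them Cd79a, Cd79b, Ms4a1 and Pax5, were at 6546 to 11500 RPM (reads scaled to the total of the library), and GC markers such as Bcl6 and S1pr2 at 1701 to 2425, with overlapping ranges in both subpopulations. T cell markers summed to 190 to 321 RPM in cMyc+lateCD23int and 176 to 275 in cMyc+lateCD23lo, with Il21 and Trbc2 at or under the floor in every late library. Myeloid markers summed to 12.0 to 50.6 and 21.2 to 68.0, with Cd14, S100a9 and Itgam at or under the floor. Erythroid markers, among them the hemoglobin genes, summed to 38.1 to 226 and 28.6 to 69.9, with the anion exchanger Slc4a1 at or under the floor. Markers of marginal zone and follicular B cells such as Ighd, Ccr7, Klf2, S1pr1 and Cd1d1 summed to 78.2 to 223 in cMyc+lateCD23int and 44.5 to 69.6 in cMyc+lateCD23lo. These sums did not overlap. Of the 8 markers, 6 had a positive log2 fold change and 2 a negative one (Ccr7 and Dtx1). Only 1 of the 8 was higher in every cMyc+lateCD23int library than in every cMyc+lateCD23lo library. Plasma cell markers summed to 2111 to 3097 and 3096 to 4674, a sum weighted by abundant members such as Jchain. Of these 6 markers, 3 had a positive log2 fold change and 3 a negative one. In bulk RNA, fewer cells of a type and less RNA per cell cannot be told apart.

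Values are normalized counts throughout, those of cMyc+lateCD23int before those of cMyc+lateCD23lo, and 4 values stand for replicates 1 to 4. The genes of the gate were read first. Fcer2a (ENSMUSG00000005540, chromosome 8, 3681737 to 3694175 of GRCm38) was at 6569, 4739, 15019 and 8050.2 normalized counts in cMyc+lateCD23int and at 3953, 1721, 2138 and 1285 in cMyc+lateCD23lo. Since the gate used its protein, this is a description of the sort; the libraries did not overlap, and the log2 fold change was 1.91 ± 0.39 (SE). Cr2 was at 8658, 6878, 7164 and 5012 and at 8993, 2633, 4392 and 2935, and here replicate 1 of cMyc+lateCD23lo was above all libraries of cMyc+lateCD23int. Myc itself, whose protein was gated as GFP+ in both, was at 857, 1801, 3817 and 1839 and at 1528, 1698, 1282 and 1198 (log2 fold change 0.36 ± 0.39, limma adjusted p = 0.923), and the ranges overlapped. Cd69, an early activation marker used to set cMyc+prePB apart, was at 2122 to 6126 in cMyc+lateCD23int and 1451 to 3686 in cMyc+lateCD23lo. Cd86, a costimulatory ligand of LZ cells, was at 9145 to 19009 and 5881 to 14727. Cxcr4, the chemokine receptor of DZ cells, was low, at 82.6, 140.5, 86.2 and 126 and at 142, 174, 147 and 152. The cMyc+lateCD23lo libraries were all above the others for Cxcr4, with a difference on the log2 scale of -0.53 ± 0.41 that did not pass (limma adjusted p = 0.872).

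The test across all genes asked which RNAs differ between cells that keep some CD23 and CD21/35 and cells with low levels of both. An adjusted limma p under 0.05 was reached by 1 gene, or 0.008% of those tested. An unadjusted p under 0.05 was reached by 471 genes that were higher in cMyc+lateCD23int (3.77%) and 314 that were lower (2.51%), together 785 (6.28%). Of all genes, 51.2% had a positive log2 fold change, and the median was 0.02. The quasi-likelihood test of edgeR on the recovered reads also passed 1 gene, with 455 and 321 at an unadjusted p under 0.05, whereas DESeq2 passed 14. Without replicate 4 of cMyc+lateCD23lo, 205 genes were lower in cMyc+lateCD23int at an unadjusted p under 0.05.

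**Figure D1:**
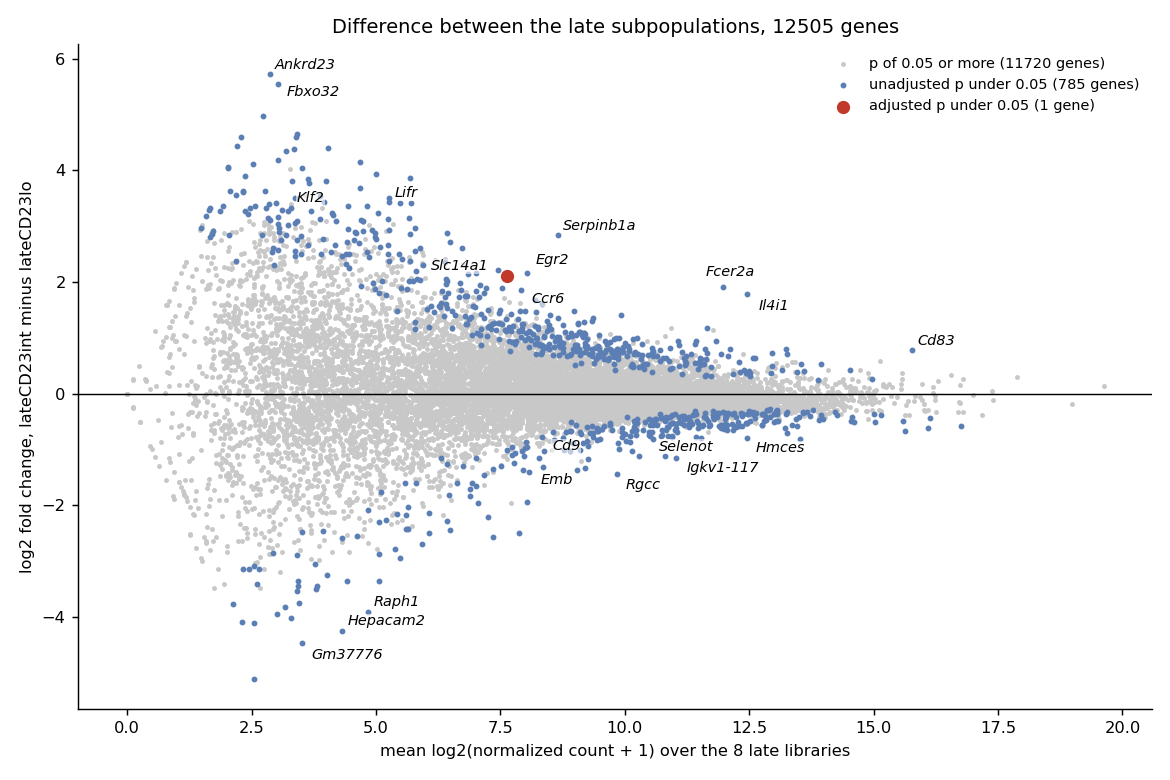
Log2 fold change between the late subpopulations (vertical axis, positive when higher in cMyc+lateCD23int) against the mean log2(normalized count + 1) over the 8 late libraries (horizontal axis), one point per gene of 12505; blue points have an unadjusted limma p under 0.05 (785 genes) and the red point, Slc14a1, an adjusted p under 0.05. Fold changes spread widely among low genes at the left and narrow to the right, where Fcer2a, Il4i1 and Cd83 stand above the other abundant genes.

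Slc14a1 (ENSMUSG00000059336, chromosome 18, 78100091 to 78142119) encodes a membrane transporter for urea. It was at 467, 271, 485 and 459 normalized counts in the 4 cMyc+lateCD23int libraries and at 86.2, 90.8, 94.8 and 106 in the 4 cMyc+lateCD23lo libraries. All cMyc+lateCD23int libraries were above all cMyc+lateCD23lo libraries, and the latter lay close together. The level was 4.31-fold higher in cMyc+lateCD23int (log2 fold change 2.11 ± 0.32, limma adjusted p = 0.0335). In cMyc+early it was at 514 to 769.9 and in cMyc+prePB at 151 to 289, so that cMyc+lateCD23lo was the lowest of the 4 groups. The drop from cMyc+lateCD23int to cMyc+lateCD23lo was not shown to exceed that from cMyc+early to cMyc+lateCD23int after adjustment (limma adjusted p = 1). The gene had an adjusted p above 0.05 in 7 of the 8 fits that left out 1 late library. It passed without replicate 2 of cMyc+lateCD23int, its lowest library in that group, and the adjusted p ranged from 0.0238 to 0.261. The protein is also known from red blood cells. Erythroid markers summed to 38.1 to 226 RPM in cMyc+lateCD23int and 28.6 to 69.9 in cMyc+lateCD23lo (above), and Slc4a1 was at or under the floor in all 8 late libraries. The part of red blood cells in the values of Slc14a1 was not tested.

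Among LZ genes, 12 of 18 tested had an unadjusted p under 0.05 and were higher in cMyc+lateCD23int, where 3.77% of all genes were, and 0 were lower. All 18 had a positive log2 fold change (median 0.74, against 0.02 over all genes), and none passed after adjustment in limma. Without replicate 1 of both subpopulations the number was 14, and without Cd69 and Cd86, which the sort used, it was 12 of 16 with a median of 0.78. The list was chosen with earlier results of these data known, so its counts are not independent evidence of a direction. The sort also used CD23, which the study describes as high in LZ B cells. Il4i1 (ENSMUSG00000074141, chromosome 7, 44816387 to 44840809), a secreted amino acid oxidase induced by IL-4 and CD40, was at 7137, 7383, 16771 and 13553 in cMyc+lateCD23int and at 3777, 3100.0, 2981 and 2463 in cMyc+lateCD23lo. The ranges were separate, with a 3.43-fold difference (log2 fold change 1.78 ± 0.38, limma adjusted p = 0.441, DESeq2 adjusted p = 0.0299). In cMyc+early, Il4i1 was at 3916 to 14159. Egr2 (ENSMUSG00000037868, chromosome 10, 67535475 to 67542188), a zinc finger transcription factor induced through the antigen receptor, was at 305, 367, 1258 and 644 and at 92.7, 73.9, 232 and 142. Every cMyc+lateCD23int library was above every cMyc+lateCD23lo library (log2 fold change 2.15 ± 0.56, limma adjusted p = 0.544, DESeq2 adjusted p = 0.0421). Cd83, which keeps MHC class II and CD86 at the surface, was among the most abundant RNAs, at 95904, 63535, 70889.6 and 67997 and at 66258, 35333, 46290.0 and 31546. Replicate 1 of cMyc+lateCD23lo was level with the lower cMyc+lateCD23int libraries, and the other 3 were below them (log2 fold change 0.78 ± 0.21, limma adjusted p = 0.544). Cd40, the receptor for T cell help, was at 4332, 3261, 3445 and 3179.7 and at 2398, 3078, 2542 and 1697 (log2 fold change 0.57 ± 0.20, limma adjusted p = 0.699), with no overlap. The guidance receptor Cxcr5 was at 2665 to 6555 and 1751 to 3118, and the adhesion receptor Slamf1 at 2583 to 5345 and 1401 to 4478; for both, replicate 1 was the highest cMyc+lateCD23lo library. The survival genes Bcl2a1d and Bcl2a1b had log2 fold changes of 0.67 and 0.65, but they are near-identical copies between which reads cannot be split with certainty. The LZ members that did not reach an unadjusted p of 0.05 were Egr1, Cd69, Cd86, Ebi3, Nr4a1 and Bcl2a1a, with log2 fold changes from 0.06 to 0.94. Egr3 was below the minimum level.

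**Figure D2:**
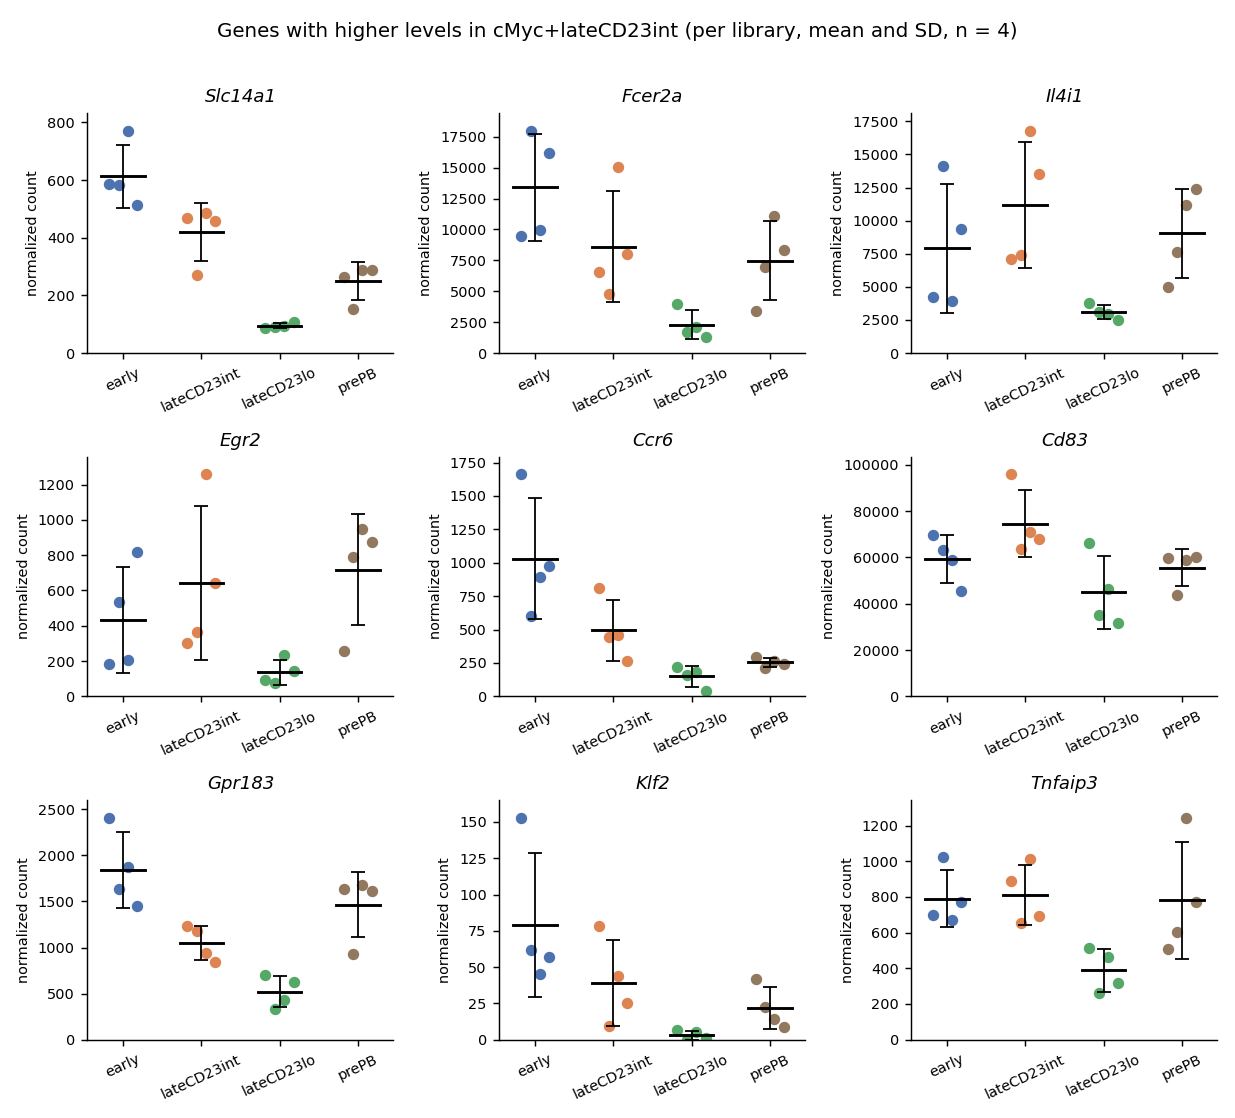
Normalized counts (vertical axes, starting at 0) of 9 genes in each library of the 4 groups, with one point per library, the mean as a bar and the SD as whiskers (n = 4). Slc14a1, Fcer2a, Il4i1, Egr2, Ccr6, Gpr183, Klf2 and Tnfaip3 are higher in every cMyc+lateCD23int library than in every cMyc+lateCD23lo library, and Cd83 overlaps through 1 library.

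Of the DZ genes, 9 of 10 were tested and 0 had an unadjusted limma p under 0.05 in either direction, or an adjusted one, and the median log2 fold change was -0.03. The gate removed DZ cells from both subpopulations by CXCR4 and CD86, and Cxcr4 is a member of this list. The list thus describes cells sorted as LZ cells only. Foxo1, the transcription factor that sets the DZ program, was at 957 to 2000.3 in cMyc+lateCD23int and 995 to 1901 in cMyc+lateCD23lo, with a log2 fold change of -0.03 ± 0.30. The sign of the median was not stable. It was 0.13 without replicate 2 and 0.02 without replicate 1 of cMyc+lateCD23lo, 0.04 without replicate 4 of cMyc+lateCD23int and 0.02 after rescaling all libraries to the same total, but -0.22 without replicate 1 of cMyc+lateCD23int and -0.17 without replicate 3 of cMyc+lateCD23lo.

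NF-kB factors and their targets showed 5 of 19 tested members with an unadjusted p under 0.05, all higher in cMyc+lateCD23int, where 3.77% of all genes were, and a median of 0.43; of these, Traf1, Icam1 and Nfkbia also stand in the LZ list. Tnfaip3, which encodes the NF-kB inhibitor A20, was at 889, 656, 1012 and 692 and at 512, 260.1, 463 and 316. These ranges were separate (log2 fold change 1.10 ± 0.30, limma adjusted p = 0.544). Traf1, an adaptor of TNF receptors, was at 1501, 1804, 2312 and 1644 and at 1106, 1114, 1373 and 877, also with no overlap (log2 fold change 0.70 ± 0.19, limma adjusted p = 0.544). Birc3, an ubiquitin ligase that blocks cell death, was at 3156 to 4676 and 2016 to 2948. The integrin ligand Icam1 was at 1211 to 2846 and 612 to 1216, with replicate 3 of cMyc+lateCD23int the highest, and Nfkbia, the inhibitor IkBa, was at 7974 to 10455 and 5008 to 9126. The subunit Rel was at 3843, 4328, 3732 and 2408 and at 5640.4, 2666, 1917 and 1553, and its highest library belonged to cMyc+lateCD23lo. Among genes of T cell help and costimulation, 4 of 20 tested had an unadjusted p under 0.05, all higher in cMyc+lateCD23int (Icam1, Slamf1, Cd40 and Ly9), with a median of 0.42. The immediate early genes gave 1 of 15 (Egr2), a count near the share over all genes, with a median of 0.58 and 12 positive values.

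To show the regulatory sequence in front of members of these lists, the 250 bases before the start site were read from RefSeq promoter windows of GRCm38.p6. The first lines are a pair of genes of the LZ list with a kappaB site in capitals, the binding motif of NF-kB. Nfkbia lies at chr12:55492648-55492897 on the minus strand with the match starting at -29 from the start site, and the Ccr6 window, one of 2 for this gene, at chr17:8242276-8242525 on the plus strand, where 2 overlapping matches run together from -81. The third is Egr2 at chr10:67537316-67537565 on the plus strand, one of 5 windows, with a CArG box at -72 in capitals, the motif of serum response factor. The last is Ccnb2, a mitotic cyclin, at chr9:70421555-70421804 on the minus strand, with CCAAT at -87, -54 and -21 in capitals, the motif of NF-Y.
Nfkbia: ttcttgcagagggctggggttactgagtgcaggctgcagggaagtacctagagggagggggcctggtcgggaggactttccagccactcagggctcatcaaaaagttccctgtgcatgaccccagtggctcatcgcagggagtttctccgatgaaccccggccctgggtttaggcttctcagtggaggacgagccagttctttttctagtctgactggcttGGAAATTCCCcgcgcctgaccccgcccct
Ccr6: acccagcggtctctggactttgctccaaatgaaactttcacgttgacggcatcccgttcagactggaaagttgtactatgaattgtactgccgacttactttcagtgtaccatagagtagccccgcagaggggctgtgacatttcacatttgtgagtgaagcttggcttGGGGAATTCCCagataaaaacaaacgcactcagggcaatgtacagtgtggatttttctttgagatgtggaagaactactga
Egr2: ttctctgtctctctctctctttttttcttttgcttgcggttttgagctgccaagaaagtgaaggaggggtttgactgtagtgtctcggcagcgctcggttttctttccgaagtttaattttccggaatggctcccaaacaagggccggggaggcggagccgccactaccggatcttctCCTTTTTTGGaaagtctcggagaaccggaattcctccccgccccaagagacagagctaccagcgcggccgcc
Ccnb2: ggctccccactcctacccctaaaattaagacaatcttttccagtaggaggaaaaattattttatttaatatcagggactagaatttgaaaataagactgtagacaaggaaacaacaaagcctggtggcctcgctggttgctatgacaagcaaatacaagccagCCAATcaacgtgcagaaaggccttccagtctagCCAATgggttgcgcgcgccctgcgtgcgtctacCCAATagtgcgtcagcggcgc
Searched on both strands in the same 250 bases, a kappaB site was found in 7.25% of 32851 promoter windows, in 4 of 17 windows of LZ genes and in 10 of 24 windows of the NF-kB list. A CArG box was in 1.47% of all windows and in 4 of 17 windows of LZ genes, all of them windows of Egr2. CCAAT was in 33.8% of all windows, in 23 of 35 windows of S-phase genes and in 39 of 52 windows of G2/M genes. The E-box CACGTG, which cMyc binds, was in 6.02% of all windows and in 1 of 17 windows of LZ genes. These are matches of letters, and windows were found for 12 of 19 LZ genes, 17 of 21 NF-kB genes, 31 of 43 S-phase genes and 47 of 54 G2/M genes.

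Genes of memory and recirculating B cells had a median log2 fold change of 0.55 over 16 tested, with 5 at an unadjusted p under 0.05, all higher in cMyc+lateCD23int, against 3.77% of all genes, and 4 with no overlap between the subpopulations, against 1.91% of all genes. Of the 16, 11 had a positive log2 fold change and 5 a negative one. The negative ones were Cd80, a costimulatory ligand (-1.50), the interleukin receptor Il9r (-0.45), the transcription factor Zbtb32 (-0.31), the complement regulator Cd55 (-0.17) and the integrin Itgb1 (-0.05). Il9r was at 57.7, 46.8, 126 and 179 and at 75.4, 261, 197 and 56.1, with overlapping ranges. Gpr183 (ENSMUSG00000051212, chromosome 14, 121952551 to 121965195), the oxysterol receptor that draws B cells to the outer follicle, was at 1234, 1177, 936 and 843 and at 697, 329, 428 and 621. The difference was 2.08-fold (log2 fold change 1.06 ± 0.26, limma adjusted p = 0.54), and cMyc+early was higher still, at 1447 to 2410.5. Ccr6, the receptor for CCL20 carried by memory precursors, was at 812, 447, 459 and 261 and at 222, 158, 182 and 38.8, and at 598 to 1662 in cMyc+early. The late subpopulations did not overlap for Ccr6 (log2 fold change 1.85 ± 0.48, limma adjusted p = 0.544). Klf2, a transcription factor of recirculating lymphocytes, was low, at 78.6, 9.16, 43.6 and 25.1 and at 6.47, 0, 5.1 and 1.02, where 2 of the cMyc+lateCD23lo libraries were under the floor. The transcription factor Hhex was at 338, 86.5, 155 and 164 and at 168, 1.87, 59.1 and 32.6 (limma adjusted p = 0.799), S1pr1, which guides exit into the blood, at 49.3 to 126 and 0 to 75.4 (limma adjusted p = 0.827), and the adhesion molecule Pecam1 at 701 to 1247 and 489 to 636 (limma adjusted p = 0.762). Bcl2, a survival gene that GC B cells keep low, was at 599, 117, 279 and 149 and at 329.8, 1.87, 81.6 and 12.2, with replicate 1 the highest library of both subpopulations. The summed markers of marginal zone and follicular B cells moved with these genes (78.2 to 223 against 44.5 to 69.6 RPM), and 3 of those 8 markers, among them Klf2 and S1pr1, also stand in the memory list. Ighd, the IgD heavy chain of unswitched B cells and one of these markers, was at 726, 734, 463 and 315 and at 377, 169, 286 and 243, whereas Ccr7, another, had a log2 fold change of -0.57 ± 0.93. The part of such cells in the result was not tested.

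The genes that the study named for its bulk RNA, chosen on these libraries and so not independent evidence of a direction, gave 9 of 21 with an unadjusted p under 0.05 that were higher in cMyc+lateCD23int and 1 that was lower, with a median of 0.61. Over all genes, the shares were 3.77% and 2.51%. The lower one was Socs2, a suppressor of cytokine signaling, at 2.99, 40.7, 34.3 and 31.6 and at 169, 83.3, 88.7 and 123, with no overlap. Batf, Id3 and Irf4 of this list had adjusted limma p-values of 0.808, 0.827 and 0.939, and Prdm1, the transcription factor of plasma cells, was at 98.5, 130.3, 36.3 and 57.6 and at 90.5, 133, 10.2 and 97.9 (log2 fold change 0.27 ± 1.06). In cMyc+early, Prdm1 was at 0 to 7.96.

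**Figure D3:**
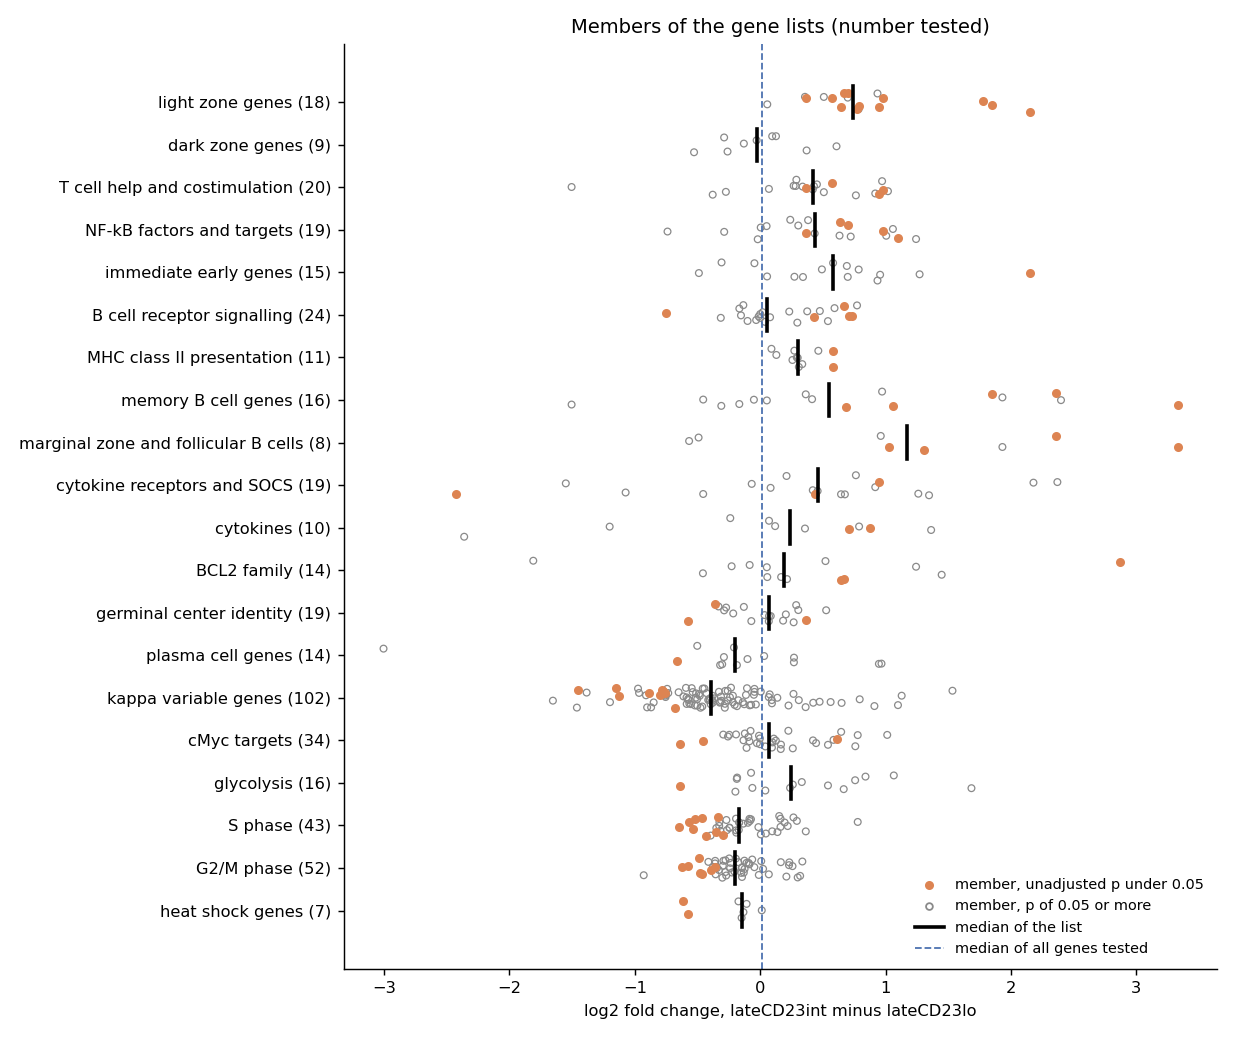
Log2 fold change of each tested member of 20 gene lists (horizontal axis, positive when higher in cMyc+lateCD23int), with the number tested in parentheses, the median of the list as a black bar and the median of all 12505 genes as a dashed line; filled points have an unadjusted limma p under 0.05. All 18 LZ genes lie right of 0, the DZ genes lie on both sides, and most S-phase, G2/M and kappa variable genes lie left of 0.

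Signals and receptors were read next. Lymphotoxin genes were higher in cMyc+lateCD23int in the mean, with Ltb at 16431, 9379, 12790.0 and 12281 and at 12315, 6998, 7848 and 5071 (log2 fold change 0.70 ± 0.24, limma adjusted p = 0.699) and Lta at 613 to 752 and 239 to 679 (limma adjusted p = 0.754). Both overlapped through replicate 1 of cMyc+lateCD23lo. Il10 went the other way in the mean, at 47.8, 127, 44.6 and 49.3 and at 116, 199, 84.6 and 198 (log2 fold change -1.20 ± 0.68, limma adjusted p = 0.816), and was listed at 0 to 2.1 in cMyc+early, at or under the floor. The interferon gamma receptor chains Ifngr2 and Ifngr1 were at 875 to 1388 against 342 to 1024 and at 2693 to 3758 against 1770.5 to 3374, with adjusted limma p-values of 0.61 and 0.757. Of the B cell receptor list, 4 of 24 were higher in cMyc+lateCD23int at an unadjusted p under 0.05 (among them Cd81, Cd22 and Vav1) and 1 was lower (Nfatc1). Over all genes, 3.77% were higher and 2.51% lower at this p. Cd81, a tetraspanin of the B cell coreceptor, was at 11217, 8336, 10640.2 and 12453 and at 7768, 7268, 8412 and 7989, and Nfatc1, a calcium-driven transcription factor, at 1289, 1991, 1221 and 1716 and at 3465, 2972, 2003 and 2103 with no overlap. All 11 MHC class II presentation genes had positive log2 fold changes, from 0.09 to 0.58, against 51.2% of all genes, with a median of 0.30. Of these, H2-Oa (3164, 2997, 2594 and 2860.0 against 2776, 1835, 2002 and 1377) and the class II transactivator Ciita (2533, 2394, 2279.6 and 2044 against 1999, 1811, 1372 and 1128) had adjusted limma p-values of 0.699 and 0.715. The Gimap genes, a family of GTPases of lymphocytes that lie together on chromosome 6 and were grouped after their values had been seen, had 8 of 9 positive values, against 51.2% of all genes. Gimap3 was at 2461, 1739, 2328 and 2265 and at 1418, 1257, 1361 and 1061 (log2 fold change 0.78 ± 0.17, limma adjusted p = 0.441, DESeq2 adjusted p = 0.0173), and Gimap4 at 6835, 5823, 5286 and 5483 and at 3084, 4193, 4043 and 2366, both without overlap.

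The cell cycle lists leaned toward cMyc+lateCD23lo. Of 43 S-phase genes, 9 were lower in cMyc+lateCD23int at an unadjusted p under 0.05 and 0 higher, against 2.51% of all genes that were lower, and the median log2 fold change was -0.17. Of 52 G2/M genes tested, 7 were lower and 0 higher, with a median of -0.20. Cdc6, which loads the replicative helicase, was at 2207, 3330.2, 3052 and 2611 in cMyc+lateCD23int and at 3905, 4421, 4465 and 3674 in cMyc+lateCD23lo. All cMyc+lateCD23lo libraries were above the others, with a difference on the log2 scale of -0.57 ± 0.17 (limma adjusted p = 0.699). Cdc45, a subunit of that helicase, was at 1237 to 1947 and 2066 to 2589, and Tyms, which makes thymidylate, at 4169.9 to 6157 and 5985 to 8379. Mki67, the proliferation antigen Ki-67, was at 12510.3, 15103, 12152 and 12261 and at 14632, 20291, 17486 and 19743, where replicate 1 of cMyc+lateCD23lo lay within the range of cMyc+lateCD23int. Ccnb2, whose promoter is printed above, was at 4650.4, 7496, 5699 and 6446 and at 5616, 8355, 10309 and 10295, and Cdc25c, the phosphatase that activates the mitotic kinase, at 666 to 1104 and 889.8 to 1665. Replicate 1 stood apart in the G2/M list, whose mean centered level was -0.36 in cMyc+lateCD23int and -0.39 in cMyc+lateCD23lo, the lowest of each subpopulation, while the other libraries were at -0.01 to 0.05 and 0.22 to 0.38. Averaged by group, the G2/M level was -0.07 in cMyc+lateCD23int, 0.11 in cMyc+lateCD23lo and 0.17 in cMyc+early, which was thus above both. For S-phase genes the averages were -0.02, 0.11 and -0.06 in the same order. The counts of cell cycle genes rested on single libraries. Without replicate 1 of both subpopulations, 15 S-phase and 13 G2/M genes were lower, and without replicate 3 of cMyc+lateCD23int, 3 and 2. For G2/M genes the count was 21 without replicate 1 of cMyc+lateCD23lo, and 4, 3 and 1 without its replicates 2, 3 and 4. At the entry to the cycle, Cdk6 was at 4039, 6159.7, 4979.6 and 4773 and at 6631, 6229, 7517 and 7352 with no overlap, whereas its partner Ccnd2 went the other way in the mean, at 3158, 3761, 4339 and 3436 and at 1999, 3325, 2299.9 and 2106. Of 34 cMyc targets, 1 was higher (Ccnd2) and 2 lower at an unadjusted p under 0.05, where 3.77% and 2.51% of all genes were, with a median of 0.07. The lower ones were Odc1, which makes polyamines, at 2232 to 3589 and 3765 to 4313, and the hexokinase Hk2, at 516 to 666 and 561 to 1300.3. Of 7 heat shock genes, 2 were lower, Hsp90ab1 at 90317, 119633, 63957 and 95799.8 and at 103518, 130391, 146010.0 and 164423, and Hsp90aa1 at 31959 to 74386 and 64481 to 111421. The mitochondrial shares of replicate 1 given above stand beside these counts, and their part was not tested.

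**Figure D4:**
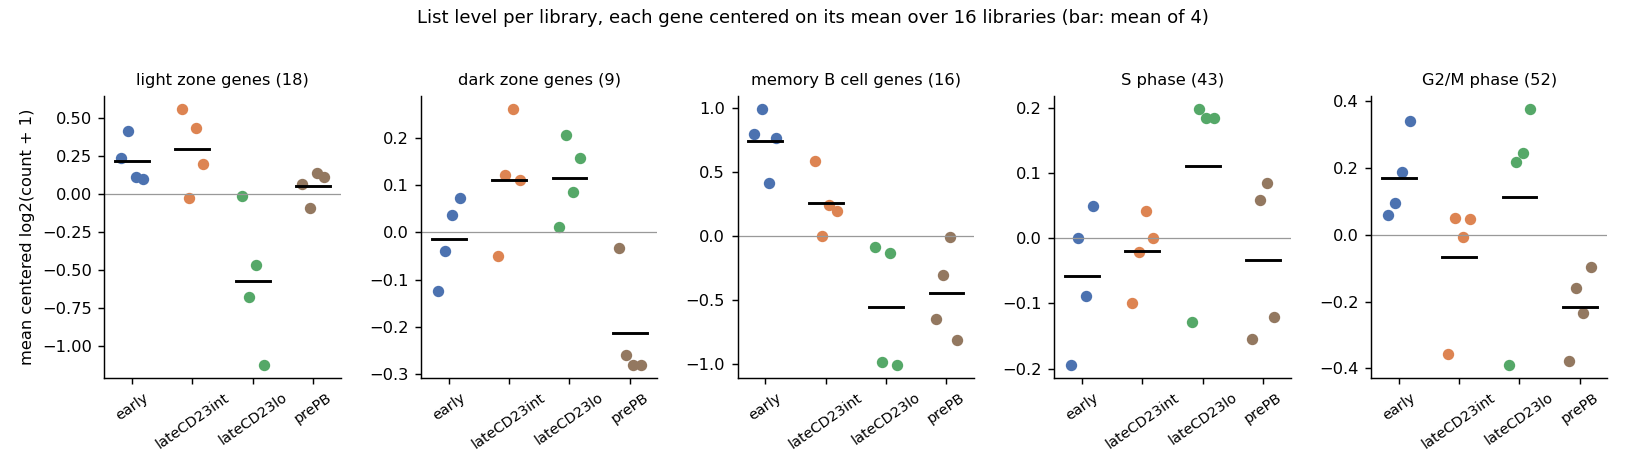
Mean over the tested members of 5 lists of log2(normalized count + 1) after centering each gene on its mean over the 16 libraries (vertical axes), with one point per library, in the order of replicates 1 to 4 from left to right, and the mean of 4 as a bar. The mean LZ level is lowest in cMyc+lateCD23lo, where replicate 1 is above the other 3, and in the S-phase and G2/M lists replicate 1 of cMyc+lateCD23lo is the lowest of its group.

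Of the genes of GC identity, 1 of 19 tested was higher in cMyc+lateCD23int and 2 were lower at an unadjusted p under 0.05, with a median of 0.07. Over all genes, 3.77% were higher and 2.51% lower at this p, so that the count of 1 is near that share. Bcl6, the repressor that GC B cells require, was at 2762, 2742, 2126 and 1911 and at 4242, 2476, 3198 and 1947 (log2 fold change -0.27 ± 0.24, limma adjusted p = 0.886). The methyltransferase Ezh2 was at 4573, 5659, 3404 and 3835 and at 5993, 6444, 6245 and 6917, and the coactivator Pou2af1 at 5856, 7900.1, 7797 and 7356 and at 9257, 10118, 8524 and 8988. For both, all cMyc+lateCD23lo libraries were the higher ones (limma adjusted p = 0.715 and 0.715), as was the case for 1.86% of all genes. Irf8, a transcription factor of GC B cells, was at 5967 to 7120.1 in cMyc+lateCD23int and 3713 to 6053 in cMyc+lateCD23lo. Of the plasma cell list, 1 of 14 tested was lower in cMyc+lateCD23int at an unadjusted p under 0.05, where 2.51% of all genes were. It was Jchain, which joins IgM and IgA subunits, at 55167, 38337, 26598 and 47076 and at 51542, 59946, 63385 and 84469.5. The ranges overlapped and the median of the list was -0.20.

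Immunoglobulin genes were read for class and for light chain. The switched share of heavy chain constant counts was 40.8% ± 2.76 (SD, n = 4) in cMyc+lateCD23int and 42.3% ± 3.52 in cMyc+lateCD23lo. The difference of -1.53 percentage points was smaller than the spread between libraries (two-sided exact permutation test, p = 0.486, where 0.0286 is the smallest p at this size). In cMyc+early and cMyc+prePB the share was 35.0% ± 1.93 and 53.2% ± 5.13. By gene, Ighg3 was at 892, 1746, 1801 and 1041 and at 1807, 3313, 1911 and 2092, with all cMyc+lateCD23lo libraries above the others (limma adjusted p = 0.754), and Ighe was at 223 to 738 and 325 to 1775. Of 102 kappa variable genes, which were grouped after their values had been seen, 83 had a negative log2 fold change, against 48.7% of all genes. Of the 102, 9 were lower at an unadjusted limma p under 0.05, against 2.51% of all genes. The median was -0.39, whereas 80 heavy variable genes had a median of 0.06. Igkv1-117 was at 1565, 2045, 852 and 1386 and at 2891, 3649, 2606 and 3311, and Igkv1-110 at 1182, 1959, 717 and 1283 and at 2029, 3351, 2402 and 2949, both without overlap, with adjusted limma p-values of 0.502 and 0.502. These genes are near copies of each other, so reads may be shared among them. The total immunoglobulin share of reads was 1.35% to 1.72% in cMyc+lateCD23int and 1.64% to 1.95% in cMyc+lateCD23lo. Plasma cell markers stood beside these values, at 2111 to 3097 RPM in cMyc+lateCD23int and 3096 to 4674 in cMyc+lateCD23lo, a sum weighted by Jchain. As a set they did not move together. Jchain (-0.66), Mzb1 (-0.29) and Xbp1 (-0.19) had negative log2 fold changes, and Sdc1 (0.95), Prdm1 (0.27) and Slamf7 (0.03) positive ones. The part of plasma cells was not tested.

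The remaining lists are given by counts at an unadjusted limma p under 0.05, which 3.77% of all genes reached as higher and 2.51% as lower in cMyc+lateCD23int, so that counts of 1 are near that share. Positioning receptors and integrins had 5 of 20 higher in cMyc+lateCD23int and 1 lower (median 0.21), complement and Fc receptors 2 of 12 higher (median 0.25), of which 1 is Fcer2a, whose protein the sort used, and cytokines 2 of 10 higher (median 0.24). The receptors of cytokines with the SOCS genes had 2 of 19 higher and 1 lower (median 0.46), and the BCL2 family 3 of 14 higher (median 0.19). For G1 cyclins and CDK inhibitors it was 1 higher and 1 lower of 18 (median 0.05, mean -0.07), for glycolysis 1 of 16 lower (median 0.25), and for cholesterol synthesis 1 of 20 in each direction, the higher one being Sqle and the lower one Fdps (median 0.09). Interferon-stimulated genes had 0 of 15 in either direction by this limma p (median 0.26). Ribosomal protein genes, another group formed after the values had been seen, had a median of -0.08 over 83 genes.

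Beyond the lists, the genes with the largest differences were taken by rule, from 96 that were higher in cMyc+lateCD23int (0.768% of those tested) and 45 that were lower (0.36%) at an unadjusted p under 0.01, with the same sign in each replicate number and a mean of at least 50 in the higher group. The largest fold changes toward cMyc+lateCD23int were of genes near 0 in cMyc+lateCD23lo. The rule favors such genes, since it asks for a level in the higher group only. For the 6 that follow, the cMyc+lateCD23int values alone would reach the minimum mean over the 16 libraries. Their low values in cMyc+lateCD23lo are thus a description. Of these genes, Zfp202, Arsb, Lifr and Cry1 reached a mean of 50 over the 16 libraries, to which cMyc+early and cMyc+prePB contributed. Ankrd23 was at 49.8, 72.3, 50.9 and 39 in cMyc+lateCD23int and at 0 in all 4 cMyc+lateCD23lo libraries, so that it was at least 17.4-fold higher, against a floor of 3 reads per library. Fbxo32, an ubiquitin ligase known as atrogin-1, was at 103, 63.1, 16.6 and 81.8 and at 0, 0, 1.02 and 0. The zinc finger gene Zfp202 was at 63.7, 89.6, 34.3 and 33.5 and at 4.31, 0.936, 1.02 and 0. Arsb, a lysosomal sulfatase, was at 131, 58, 72.7 and 55.8 and at 2.16, 0.936, 25.5 and 0, and Lifr, the receptor for leukemia inhibitory factor, at 461, 71.2, 93.4 and 79.9 and at 10.8, 6.55, 10.2 and 18.4. Cry1, a repressor of the circadian clock, was at 64.7, 115, 154 and 88.3 and at 2.16, 3.74, 25.5 and 33.7. All 6 had no overlap, which the rule favors and which 1.91% of all genes had in this direction. Their adjusted limma p-values were between 0.44 and 0.70, and their mean levels at most 176 normalized counts. The other 4 by this rule, Zfp619, E430014B02Rik, Colq and Leng8, had log2 fold changes of 4.65, 4.15, 3.76 and 3.36. At higher levels and called by DESeq2 but not by limma, Serpinb1a, a protease inhibitor, was at 3195, 735, 713 and 792 and at 266, 249, 34.7 and 216, with replicate 1 of cMyc+lateCD23int far above the rest. Bhlhe41, a clock repressor also found in B cells, was at 194, 103, 169 and 172 and at 72.2, 48.7, 52 and 61.2, and at 328 to 551 in cMyc+early. The remaining DESeq2 calls were Slc14a1, Fcer2a, Il4i1, Egr2, Gimap3, Fbxo32, Zfp202, Lifr, Hmces, Selenot, A930004J17Rik and Gm45464, whose adjusted p-values in DESeq2 ran from 1.39e-08 to 0.049.

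Toward cMyc+lateCD23lo, Rgcc, a regulator of the cell cycle, was at 484, 502, 509.7 and 771 in cMyc+lateCD23int and at 1144, 1406, 1540.4 and 2105 in cMyc+lateCD23lo. The difference was 2.72-fold with no overlap (log2 fold change -1.44 ± 0.45, limma adjusted p = 0.699), and in cMyc+early the gene was at 217 to 284. Emb, which encodes the membrane glycoprotein embigin, was at 186, 607, 372 and 267 and at 459, 1125, 838 and 1154, and the tetraspanin Cd9 at 316, 518, 263 and 642 and at 586, 811, 1181 and 1295, each with 1 cMyc+lateCD23lo library in the range of the other group. Rab11fip4, an adaptor of vesicle transport, was at 50.8, 153, 109 and 125 and at 218, 198, 228 and 473. Raph1, an actin regulator, was at 1.99, 7.12, 24.9 and 3.72 and at 200.4, 116, 51 and 121, Hepacam2, an adhesion molecule, at 0, 17.3, 11.4 and 0.929 and at 116, 62.7, 62.2 and 120.3, and the homeobox gene Pbx3 at 9.95, 42.7, 18.7 and 7.44 and at 76.5, 124, 109 and 39.8. The rule also took both kappa genes above and the unnamed gene Gm37776, at 0, 34.6, 0 and 0 and at 62.5, 40.2, 71.4 and 42.8. For Raph1, Hepacam2, Pbx3 and Gm37776, the cMyc+lateCD23lo values alone would reach the minimum mean over the 16 libraries. Their low values in cMyc+lateCD23int are thus a description. The rule favors an absence of overlap, which 1.86% of all genes had in this direction. Among the DESeq2 calls were also a pair of genes at higher levels. Hmces, which guards abasic sites in DNA, was at 3775, 4379, 4512 and 4342 and at 6108, 7193, 8334 and 7969 (log2 fold change -0.79 ± 0.19, limma adjusted p = 0.473, DESeq2 adjusted p = 0.0472), and at 2444 to 2947 in cMyc+early. Selenot, a selenoprotein of the endoplasmic reticulum, was at 1138, 1074, 1178 and 1327 and at 2101, 1998, 1748 and 1796, while cMyc+early was at 1065 to 1268 and cMyc+prePB at 1006 to 1402. The 4 cMyc+lateCD23lo libraries were thus above all 12 others for Selenot, by values alone.

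**Figure D5:**
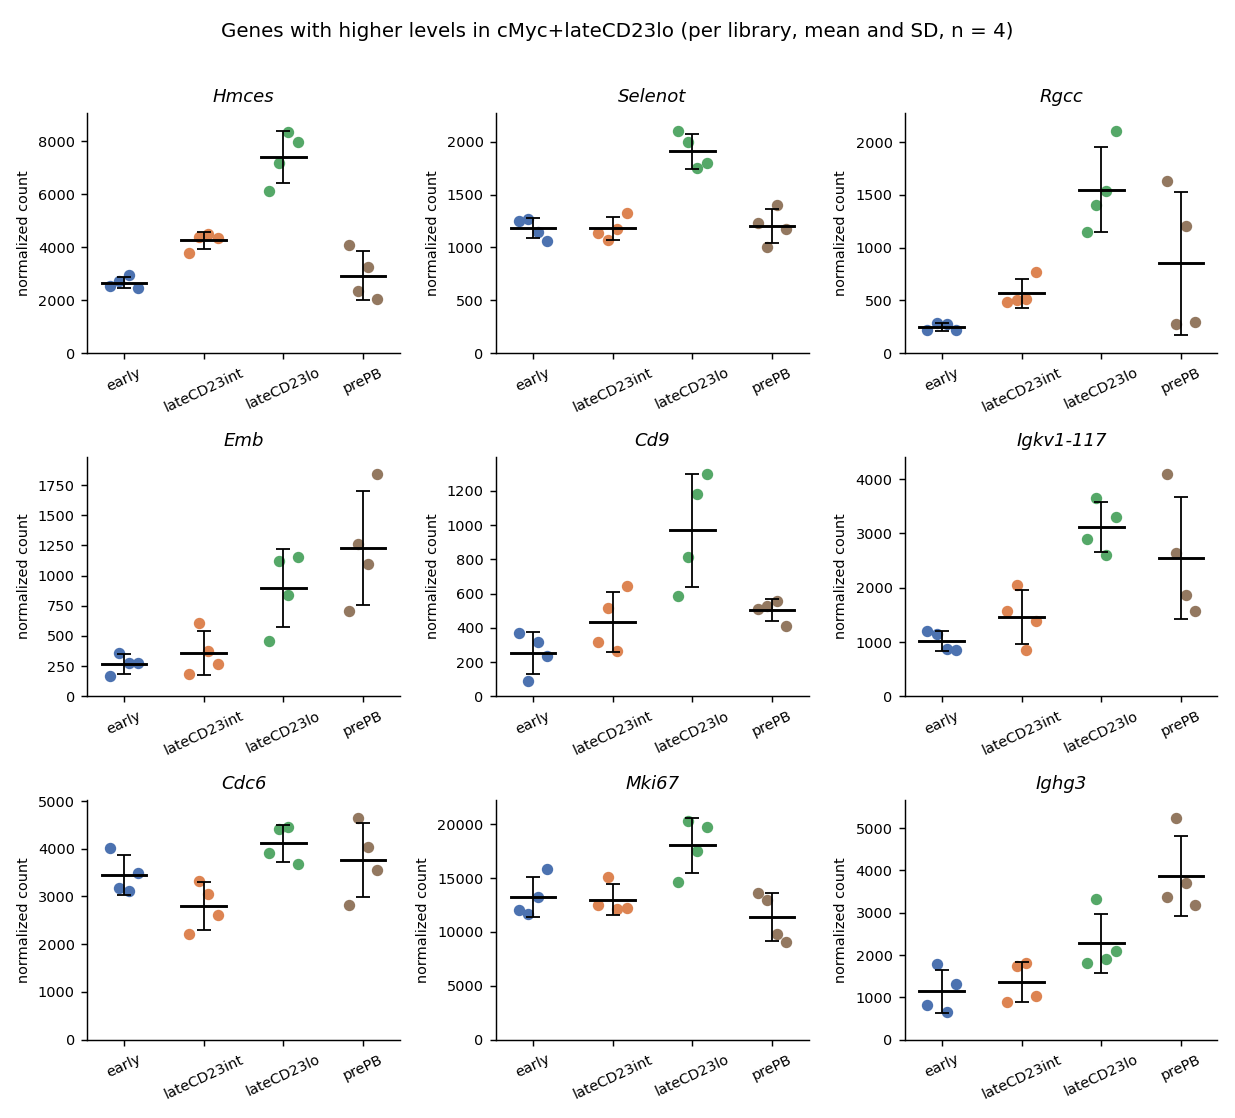
Normalized counts (vertical axes, starting at 0) of 9 genes in each library of the 4 groups, with one point per library, the mean as a bar and the SD as whiskers (n = 4). Hmces, Selenot, Rgcc, Igkv1-117, Cdc6 and Ighg3 are higher in every cMyc+lateCD23lo library than in every cMyc+lateCD23int library, and Emb, Cd9 and Mki67 overlap.

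Whether a gene changed more at this step than from cMyc+early to cMyc+lateCD23int was tested as a difference of both steps, which share the cMyc+lateCD23int libraries. No gene passed an adjusted p under 0.05 in limma or in edgeR, and 383 (3.06%) had an unadjusted limma p under 0.05. For the genes that follow, as for Slc14a1, the limma adjusted p of that difference was 1. Cd83 was at 45452 to 69619.9 in cMyc+early and 63535 to 95904 in cMyc+lateCD23int, against 31546 to 66258 in cMyc+lateCD23lo. Traf1 was at 1238 to 1744, 1501 to 2312 and 877 to 1373 in the same order, so that its levels in cMyc+early and cMyc+lateCD23int overlapped. Gpr183 and Ccr6 were lower in the mean at each step, and Rgcc and Hmces were higher at each. Fbxo32 was at 21, 1.77, 0 and 25.3 in cMyc+early and 0.827 to 29 in cMyc+prePB, so that its mean was highest in cMyc+lateCD23int.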

How the data were processed

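RNA was sequenced from 16 libraries of sorted spleen cells, 4 of each group, made with a low-input kit from total RNA. The submitters' processing notes name Trimmomatic 0.36, STAR 2.5.2a, RSEM 1.2.31, DESeq2 1.20.0, R 3.5.1 and GRCm38, with no role given; the annotation release and the use of strand are not given in the sources used here. The deposited table holds a signal per gene and library, the gene count that the authors divided by 1 size factor per library. Whole reads were recovered for 100% of values (tolerance 0.01), and these may be rounded estimates, so near-identical copies are uncertain. No row lacked a gene name.

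Groups were taken from the labels. Values were tested as log2(normalized count + 1), which understates the change of low genes, in limma 3.58.1 (R 4.3.3) with 1 model over all 16 libraries, a trended prior and Benjamini-Hochberg adjustment over the 12505 genes whose mean normalized count reached 10, at 0.05. Fold changes are cMyc+lateCD23int over cMyc+lateCD23lo. Alternatives were edgeR 4.0.16 and DESeq2 1.42.0 on the recovered reads, pseudocounts of 0.5 and 5, other filters, scalings and priors, the 8 late libraries alone, a replicate block and leaving out libraries; edgeR and limma were tested on simulated data. The switched share was tested by exact permutation in SciPy 1.17.1. Coordinates come from GENCODE M21 on GRCm38, matched for 12471 of the tested genes, and promoters from RefSeq.

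Genes were named if they passed the adjusted p (Slc14a1), if they belonged to the gate, were named by the study, or were list members at an unadjusted p under 0.05, and as the 10 largest fold changes in each direction at an unadjusted p under 0.01. Other genes were named as contrasts within their lists, and some genes that the rule takes are not reported here. The members and lists were chosen with earlier results of these data known; the kappa variable, heavy variable, Gimap and ribosomal groups and the DESeq2 calls were taken after the values had been seen.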

Additional observations from a re-analysis of the deposited data

Results flagged for a closer look

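In 12 of 156 groups of 4 libraries examined, 1 library stood apart by Dixon's test at the 95% level, which chance gives in about 1 of 20 groups. In cMyc+lateCD23int, Slc14a1 was at 270.7 in replicate 2 against 459 to 485 in the others. Replicate 1 was the high one for Cd86 (19009 against 9145 to 10771), Serpinb1a (3195 against 713 to 792) and Lifr (461 against 71.2 to 93.4). Il10 was at 127 in replicate 2 against 44.6 to 49.3, and Mki67 was at 15103 in the same library against 12152 to 12510. Rgcc was at 771 in replicate 4 against 484 to 510, and Rad51ap1 at 2107 in replicate 2 against 1515 to 1583. In cMyc+lateCD23lo, Slamf1 was at 4478 in replicate 1 against 1401 to 1747, and Rab11fip4 at 473 in replicate 4 against 198 to 228. Arsb was at 25.5 in replicate 3 against 0 to 2.16 in the others, which were under the floor of 3 reads. Fbxo32, at 1.02 in replicate 3 against 0 in the others, was under the floor in every library of the group.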

How the results depend on the processing

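The 76 named genes examined all kept the sign of their fold change under the settings that gave them a value, which were 22, or 21 for Ankrd23, Fbxo32, Hepacam2, Klf2 and Pbx3, whose level is too low for a minimum mean of 50. The number of genes at an adjusted p under 0.05 (1) was 14 in DESeq2, 2 with a prior without trend, 0 with quantile normalization, 0 in the 8 late libraries alone, with or without a replicate block, 0 without replicate 1 of both late groups (chosen after seeing the data) and 0 to 1 when 1 late library was left out. At an unadjusted p under 0.05, 735 genes were higher and 537 lower in cMyc+lateCD23int with no filter on low values, and 317 to 556 and 205 to 428 with 1 library left out. The median of LZ genes then ran from 0.55 to 0.94, of DZ genes from -0.22 to 0.13, of S-phase genes from -0.28 to -0.13 and of G2/M genes from -0.38 to -0.11. Without replicate 1 of both groups, 15 S-phase and 13 G2/M genes were lower; leaving out 1 library gave 3 to 11 and 1 to 21, and 4 G2/M genes were lower both with no trend and in the 8 late libraries. The cause was not tested. The median of all genes was 0.06 after rescaling to the same total and -0.02 after quantile normalization. Replicate numbers were not taken to pair the samples, since not every pair of same-numbered late libraries correlated in its deviations from the group means. For numbers 1 to 4 the correlations were 0.07, -0.01, -0.03 and 0.08 over 12505 genes and 0.49, -0.003, -0.05 and 0.37 over 3651 genes whose mean reached 1000, and 2 of 4 cMyc+lateCD23int libraries correlated best with their own number. With a replicate block over all libraries the counts were 1 at the adjusted p and 654 higher and 410 lower at the unadjusted p. The block raised some list counts at the unadjusted limma p. Of LZ genes 15 were higher (12 without the block) and of MHC class II genes 8 (2 without). Lower were 11 S-phase genes (9 without), 9 G2/M genes (7 without) and 13 kappa variable genes (9 without). The difference in switched share ran from -2.92 to -0.07 percentage points with 1 library left out (exact permutation p from 0.229 to 0.914), and sign changes within replicate numbers gave p = 0.625, where 0.125 is the smallest possible. The step difference was not run for DESeq2 and the 8 late libraries. Depth limits genes near 3 reads, such as Klf2 and Fbxo32.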
